A study of Mus musculus with 21 samples.

Results

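Chemokine ligands and chemokine receptors were taken from 3 deposited mouse RNA-seq tables as the protein-coding genes whose symbol begins with Ccl, Cxcl, Cx3cl, Xcl, Ccr, Cxcr, Cx3cr, Xcr or Ackr followed by a number. This gave 68 distinct gene IDs, under 62 symbols, of 55145 gene IDs in all. Of these, 66 of 54532 genes were in the carbon tetrachloride (CCl4) table and in the hepatocyte table, namely 44 ligands and 22 receptors, and 59 of 34280 were in the thioacetamide (TAA) table. Cxcl11 counted as coding in the TAA table alone, where its transcripts are typed as both a polymorphic pseudogene and coding. Ccl19, Ccl21a, Ccl21b, Ccl21c and Ccl27a each have several near-identical gene IDs in these tables, so reads may be split among copies and their values are uncertain.

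The series compares 21 libraries in 7 groups of 3. Primary wild-type mouse hepatocytes were given lipopolysaccharide (LPS, 1 µg/mL) for 6 h and nigericin (10 µM), an ionophore that activates the NLRP3 inflammasome, for 30 min, and a second group first received the NLRP3 inhibitor MCC950 (10 µM) for 2 h. Livers came from wild-type mice injected intraperitoneally with oil or with the hepatotoxin CCl4, and from CCl4-injected mice labelled Sting knockout; the labels give 6 weeks and the design text 8 weeks for CCl4. The last pair of groups are livers after 8 weeks of intraperitoneal TAA, another hepatotoxin, from wild-type animals or from animals labelled as lacking hepatocyte Nlrp3. The ages of the mice and the promoter that drove the hepatocyte deletion are not given in the sources used here. No hepatocytes without LPS, no livers without TAA and no oil-treated livers labelled Sting knockout were analysed here. Nothing in the labels says that replicates were separate animals or cultures, so p-values measure the spread between these libraries only.

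Chemokines are small secreted proteins that bind G-protein-coupled receptors on leukocytes and direct their movement along a gradient. They are grouped by the spacing of their first cysteines into CC, CXC, C and CX3C ligands, and atypical receptors (Ackr genes) bind them without classical G-protein signalling and remove or present them. In liver, monocytes that carry CCR2 follow CCL2, neutrophils that carry CXCR2 follow CXCL1, CXCL2 and CXCL5, T cells and NK cells that carry CXCR3 follow CXCL9 and CXCL10, and CXCL12 retains cells that carry CXCR4.

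Each TAA library held 32096879 to 68913793 counts. The reads recovered from the deposited values numbered 14353483 to 16684832 in the oil and CCl4 libraries and 14883710 to 17157586 in those of hepatocytes. Sting1, named Tmem173 in the CCl4 table, was at 6.10, 5.15 and 4.74 FPKM (fragments scaled to gene length and library depth) in the 3 wild-type CCl4 livers and at 3.42, 1.98 and 5.28 FPKM in the livers labelled Sting knockout. These groups overlapped, so the gene was not absent from the libraries labelled Sting knockout and that name is used for them throughout. Their titles read STING KO, while the library codes in the same titles begin with SWT, which the titles do not explain. Nlrp3 had 0.15, 0.11 and 0.17 FPKM in wild-type TAA livers and 0.08, 0.37 and 0.25 FPKM in those labelled as hepatocyte deletion. These groups overlapped, and replicates 2 and 3 of the deletion lay above every wild-type library. Whole liver also holds cells outside the deletion, whose part in this was not tested. The deletion is thus named as the labels give it. In the hepatocyte libraries the 10 hepatocyte markers (Alb, Apoa1 and others) summed to 38861 to 44826 FPKM, the 7 Kupffer cell markers to 0.169 to 0.609 FPKM the 11 T and NK cell markers to at most 0.0794 FPKM, the 10 markers of recruited macrophages and monocytes to 29.4 to 38.3 FPKM, of which Cd68 made up to 35.0 FPKM, the cholangiocyte markers to 6.14 to 6.81 FPKM and the sinusoidal endothelium markers to 4.86 to 5.88 FPKM. Hepatocyte markers were thus far above those of other cells in these libraries, and all 6 eosinophil and mast cell markers were at 0 there.

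CCl4 liver of wild-type mice had more chemokine and receptor RNA than oil-treated liver, in both ligands and receptors. On the log2(FPKM + 1) scale the largest rises were those of Ccl6, a CC ligand of CCR1, Cx3cr1, the fractalkine receptor of resident and recruited macrophages, Cxcl14, a ligand made by stromal and epithelial cells, Ccl7 and Ccl2, which attract monocytes through CCR2, and Ccr2 itself. That scale holds back genes near 0 in oil, and edgeR on recovered reads gave log2 fold changes of 5.58 for Ccl4, 4.41 for Ccr1 and 3.59 for Ccl6. Of the 66 members, 26 had a mean of at least 1 FPKM and were tested; 13 rose and 0 fell at an adjusted p under 0.05 (limma with an intensity trend on log2(FPKM + 1), Benjamini-Hochberg over 11511 genes), where 9.19% of all genes tested rose and 6.15% fell. The median difference was 1.42 on the log2(FPKM + 1) scale over the 26 members and -0.08 over all genes. The wild-type CCl4 libraries lay wholly above the oil libraries for 17 of the 26, against 16.6% of all genes tested, and wholly below for 0, against 21.4%. By edgeR on recovered reads 20 of 37 tested members rose and 0 fell, where 13.2% of all genes rose and 5.51% fell. The ligands Ccl3, Ccl4 and Ccl7, and several receptors, were below 1 FPKM in every oil library and passed the limma filter only through their CCl4 levels. That filter thus favoured rises among the members tested, and the counts by limma are not independent of it. Without a filter on low values 8 of 57 members rose by limma, beside 3.66% of all genes.

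The monocyte-attracting CC ligands were low in oil. Ccl2 was at 1.04, 1.07 and 1.81 FPKM in the oil libraries and at 10.6, 8.15 and 7.47 FPKM in the CCl4 libraries of wild-type mice. All 3 CCl4 libraries were above all 3 oil libraries, and the difference was 2.08 ± 0.48 (SE; all differences from limma are on the log2(FPKM + 1) scale), with an adjusted p of 0.0158 by limma. Ccl7, its neighbour on chromosome 11, went from 0.246, 0.477 and 0.234 FPKM to 5.91, 5.30 and 4.30 FPKM. The libraries were close to each other within each group and the difference was 2.22 ± 0.19 (limma, adjusted p = 0.000128). Ccl8, another ligand of this group, had no read in any oil library and 35, 3 and 59 reads in the CCl4 libraries, at least 10.3-fold higher when each oil library is set to 3 reads. It lay above oil in each library but differed widely among them and was not called by limma (adjusted p = 0.0971), whereas edgeR on recovered reads called it (adjusted p = 0.0237). Ccl12 was below the filter and high in 1 library, at 4.71 FPKM in CCl4 replicate 1 beside 0.195 and 0.601 FPKM.

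Among the CC ligands Ccl3, Ccl4, Ccl5, Ccl6 and Ccl9, 3 of 5 rose, beside 9.19% of all genes tested. Ccl6 was at 4.58, 7.2 and 6.68 FPKM in oil and at 112, 48.6 and 63.2 FPKM in CCl4, the highest mean of any member in that group at 74.8 ± 33.5 FPKM (SD, n = 3). The lowest CCl4 library was far above the highest oil library, with a difference of 3.34 ± 0.33 (limma, adjusted p = 0.000182). Ccl9, the neighbouring gene on the same strand and also a ligand of CCR1, began from a higher level, at 21.2, 26.4 and 30.0 FPKM in oil, and reached 45.6, 39.7 and 82.7 FPKM. Its groups did not overlap, yet the difference of 1.02 ± 0.33 missed the threshold (limma, adjusted p = 0.0591). Ccl3 (0.429, 0.699 and 0.489 FPKM in oil, 6.03, 3.63 and 1.61 FPKM in CCl4) and Ccl4 (0.0995, 0.116 and 0 FPKM in oil, 8.50, 3.49 and 0.896 FPKM in CCl4) encode macrophage inflammatory proteins and rose by 1.52 ± 0.35 and 2.01 ± 0.53 (limma, adjusted p = 0.0158 and 0.0271). Both were highest in CCl4 replicate 1 and lowest in replicate 3. Ccl5, made by T cells and NK cells among others, overlapped between groups at 2.33, 1.51 and 0.878 FPKM in oil and 20.5, 4.42 and 1.62 FPKM in CCl4 (limma, adjusted p = 0.197).

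Ccl6 and Ccl9 are shown with their upstream sequence because they were the highest CC ligands of CCl4 liver, lie side by side and yet differed in their level in oil. Each sequence is RefSeq's, on GRCm38.p6, read 5′ to 3′ on the gene's own strand and ending with the base before the start site, Ccl6 at chr11:83593088-83593337 (minus strand) and Ccl9 at chr11:83578637-83578736 (minus strand). Capitals mark a match to an NF-kB type motif, GGG followed by any 3 bases and TTCC, on either strand.
Ccl6: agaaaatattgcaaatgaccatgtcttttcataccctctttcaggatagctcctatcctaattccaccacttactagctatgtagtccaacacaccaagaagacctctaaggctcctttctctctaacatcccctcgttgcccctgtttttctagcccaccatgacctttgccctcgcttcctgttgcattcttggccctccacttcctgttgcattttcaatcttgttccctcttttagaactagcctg
Ccl9: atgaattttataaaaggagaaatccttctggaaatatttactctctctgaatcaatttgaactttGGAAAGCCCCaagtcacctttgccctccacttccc
The Ccl9 stretch holds 1 match, on the opposite strand and 35 bases before the start, and the 250 bases before the Ccl6 start hold no match. Over all 32851 RefSeq promoter windows, searched over the same 250 bases, 4.65% held the motif, and 9 of the 53 windows of members did. The 250 bases held 45.2% G and C and 2 CG pairs for Ccl6 and 43.6% and 2 for Ccl9, beside medians of 52.4% and 6 over all windows. A match is a run of letters and says nothing of binding.

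**Figure D1:**
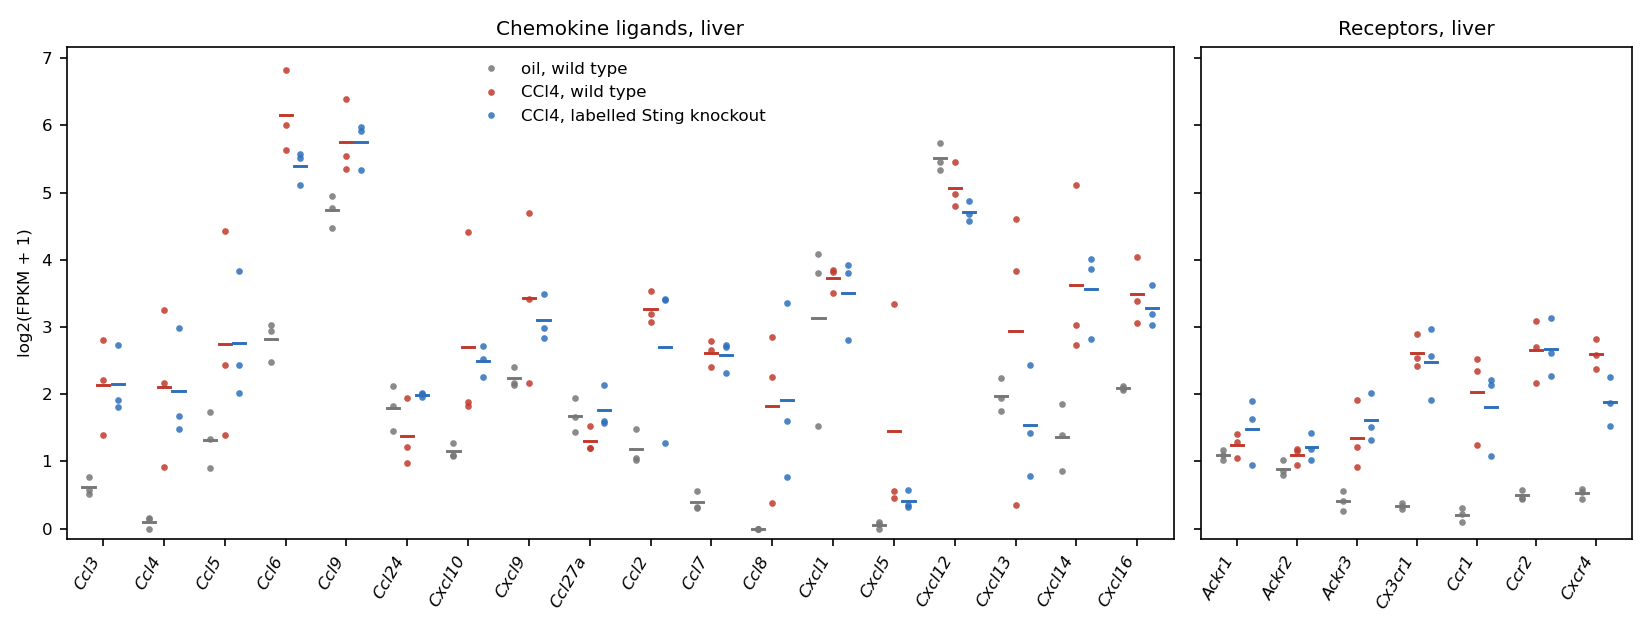
Level of 25 tested members in each library of the CCl4 table, as log2(FPKM + 1), 18 ligands on the left and 7 receptors on the right; points are libraries and short lines group means of 3 libraries. The receptors Cx3cr1, Ccr1, Ccr2 and Cxcr4 were below 1 FPKM in every oil library and above it in every CCl4 library, and Ccl6 had the highest mean in wild-type CCl4 liver, 74.8 FPKM.

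Receptor genes rose too, in small numbers per class: 3 of 3 tested CC receptors (of 10), 1 of 1 tested CXC receptor (of 6), the CX3C receptor Cx3cr1 and 1 of 3 tested atypical receptors (of 4). In oil, 2 of 22 receptor genes reached a mean of 1 FPKM; in wild-type CCl4 liver 10 did. Of the 8 receptors tested, 6 rose, beside 9.19% of all genes tested. Ccr1, Ccr2, Cx3cr1, Cxcr4 and Ackr3 were below 1 FPKM in every oil library and passed the filter only through their CCl4 levels. The filter thus favoured rises among the receptors tested, and these counts are not independent of it. Ccr2, the receptor for CCL2 and CCL7, was at 0.496, 0.373 and 0.360 FPKM in oil and at 3.48, 5.54 and 7.55 FPKM in CCl4. The groups were far apart, with a difference of 2.16 ± 0.27 (limma, adjusted p = 0.000731). Ccr1, which binds CCL3, CCL5, CCL6 and CCL9, went from 0.0696, 0.243 and 0.165 FPKM to 1.36, 4.09 and 4.73 FPKM (1.82 ± 0.37, limma, adjusted p = 0.00827). The groups were apart, and CCl4 replicate 1 was the lowest of its group.

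Cx3cr1, a receptor of monocytes and macrophages, was at 0.263, 0.305 and 0.229 FPKM in oil and at 4.34, 6.46 and 4.83 FPKM in CCl4 (2.28 ± 0.26, limma, adjusted p = 0.000454). The Cx3cr1 gene model spans several other genes, of which Gorasp1, a Golgi gene on the same strand, had a mean of 7.75 FPKM in oil and 5.08 FPKM in CCl4. Its ligand gene Cx3cl1 was below the filter, with group means of 0.238 ± 0.146 FPKM in oil and 1.21 ± 0.434 FPKM in CCl4 (SD, n = 3) that did not overlap by library. Cxcr4, the CXCL12 receptor, went from 0.509, 0.465 and 0.363 FPKM to 5.02, 4.2 and 6.04 FPKM, in narrow groups that were wholly apart (2.06 ± 0.22, limma, adjusted p = 0.000294). Cxcr2, the neutrophil receptor for CXCL1, CXCL2 and CXCL5, was also below the filter, at 0.0647, 0.0752 and 0.215 FPKM in oil and 0.957, 1.15 and 1.41 FPKM in CCl4. For Cx3cl1 and Cxcr2 the exact two-sided permutation test gave p = 0.1, the smallest that 3 against 3 libraries allow, and edgeR on recovered reads gave adjusted p = 0.0102 and 0.00504.

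Of the atypical receptors 1 of 3 tested rose, beside 9.19% of all genes tested. Ackr3, a scavenger of CXCL12, was at 0.196, 0.479 and 0.336 FPKM in oil and 0.888, 1.31 and 2.78 FPKM in CCl4, and rose by 0.93 ± 0.28 (limma, adjusted p = 0.0472). Ackr1, the erythroid and venular binder of inflammatory chemokines, had means of 1.14 ± 0.115 and 1.39 ± 0.292 FPKM, and Ackr2, a scavenger of CC chemokines, 0.862 ± 0.148 and 1.15 ± 0.184 FPKM in oil and CCl4 (SD, n = 3). Both overlapped between groups and neither passed the test (limma, adjusted p = 0.758 and 0.536). Ackr4, which scavenges CCL19 and CCL21, was below the filter at 0.408 ± 0.159 and 0.308 ± 0.108 FPKM (SD, n = 3).

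The CXC ligands split. Cxcl16, the membrane-bound ligand of CXCR6, was at 3.28, 3.37 and 3.16 FPKM in oil and 15.4, 7.37 and 9.45 FPKM in CCl4, and rose by 1.4 ± 0.27 (limma, adjusted p = 0.00579). Cxcl14 rose from 1.62, 2.64 and 0.820 FPKM to 7.17, 33.7 and 5.65 FPKM (2.26 ± 0.57, limma, adjusted p = 0.0233), with replicate 2 far above the other CCl4 libraries. The CXCR3 ligands Cxcl9 and Cxcl10 were above their oil mean in CCl4 but did not pass (limma, adjusted p = 0.139 and 0.0870): Cxcl10 was at 1.14, 1.12 and 1.41 FPKM in oil and 20.3, 2.68 and 2.56 FPKM in CCl4, which did not overlap, and Cxcl9 at 3.42, 3.47 and 4.28 FPKM and 25.0, 3.51 and 9.74 FPKM, which did. By edgeR on recovered reads both were called (adjusted p = 0.0155 for Cxcl10 and 0.0364 for Cxcl9), and Cxcl9 also by limma without CCl4 replicate 2 (adjusted p = 0.0107). Cxcl13, the B cell attractant, was at 2.86, 3.72 and 2.36 FPKM in oil and 23.5, 0.273 and 13.3 FPKM in CCl4, so that the CCl4 libraries enclosed the oil ones (limma, adjusted p = 0.542), and without CCl4 replicate 2 it was called (limma, adjusted p = 0.00891).

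Cxcl12, the ligand of CXCR4 and ACKR3, was the most abundant member of oil-treated liver, at 39.6, 43.1 and 52.6 FPKM. It was at 42.8, 30.5 and 26.8 FPKM in wild-type CCl4 liver, a difference of -0.44 ± 0.26 that did not pass (limma, adjusted p = 0.300), while the libraries overlapped. Its upstream bases are shown beside those of Ccl6 above because these were the members at opposite ends of the CCl4 comparison. They were read from RefSeq on GRCm38.p6 at chr6:117168285-117168534 (plus strand) and hold no capital, that is no match to the NF-kB type motif or to the interferon response motif GAAA, any base, TGAAA.
Cxcl12: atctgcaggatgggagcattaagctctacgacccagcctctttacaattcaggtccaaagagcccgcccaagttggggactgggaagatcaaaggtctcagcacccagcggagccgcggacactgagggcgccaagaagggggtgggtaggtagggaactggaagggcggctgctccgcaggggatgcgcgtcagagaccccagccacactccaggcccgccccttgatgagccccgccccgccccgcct
This stretch was 64.4% G and C with 14 CG pairs, against 45.2% and 2 for Ccl6.

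Of the neutrophil-attracting CXC ligands 2 were tested, Cxcl1 and Cxcl5, and limma called neither. Cxcl1 was at 1.89, 12.9 and 16.1 FPKM in oil and 13.1, 10.3 and 13.4 FPKM in CCl4 (0.58 ± 0.57, limma, adjusted p = 0.577). Oil replicate 1 was low, and without it the difference was -0.22, the opposite sign. Cxcl5, an epithelial ligand of CXCR2, was at 0.0705, 0 and 0.0503 FPKM in oil and 0.473, 0.366 and 9.18 FPKM in CCl4, with replicate 3 far above the others. Its groups did not overlap, limma gave an adjusted p of 0.162, and edgeR on recovered reads called it (adjusted p = 0.00932). Cxcl2 and Cxcl3 were below the filter at 1, 2 and 1 reads and 1, 0 and 0 reads in oil and 7, 10 and 16 reads and 4, 4 and 4 reads in CCl4, also without overlap (exact permutation p = 0.1 each, the smallest possible), and Cxcl15 had no read in this table.

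Of the other members of the CCl4 table, Ccl24, an eosinophil attractant, and Ccl27a, a skin and epithelial chemokine, were tested and not called: their group means went from 2.54 ± 0.820 to 1.71 ± 0.986 FPKM and from 2.24 ± 0.575 to 1.49 ± 0.348 FPKM (SD, n = 3). Ccl27a overlaps Il11ra1 on the opposite strand, which was at 11.1 FPKM in oil, so its reads may belong to that gene where strand was not kept. The remaining 40 members were below the filter, and 9 of them had no read in any library of the table.

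Some of the chemokine genes lie together in clusters on the chromosomes of mm10. On chromosome 11, 3 of 5 genes at 83525778 to 83664683 rose (Ccl3, Ccl4 and Ccl6, with Ccl5 and Ccl9 not called), and 2 of the 3 tested of 6 at 82035571 to 82305690 (Ccl2 and Ccl7). On chromosome 5, 2 of the 5 neutrophil-attracting genes at 90759360 to 90905938 were tested and 0 were called by limma. Of all genes tested 9.19% rose, and neighbours that share a cluster are not independent observations.

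**Figure D2:**
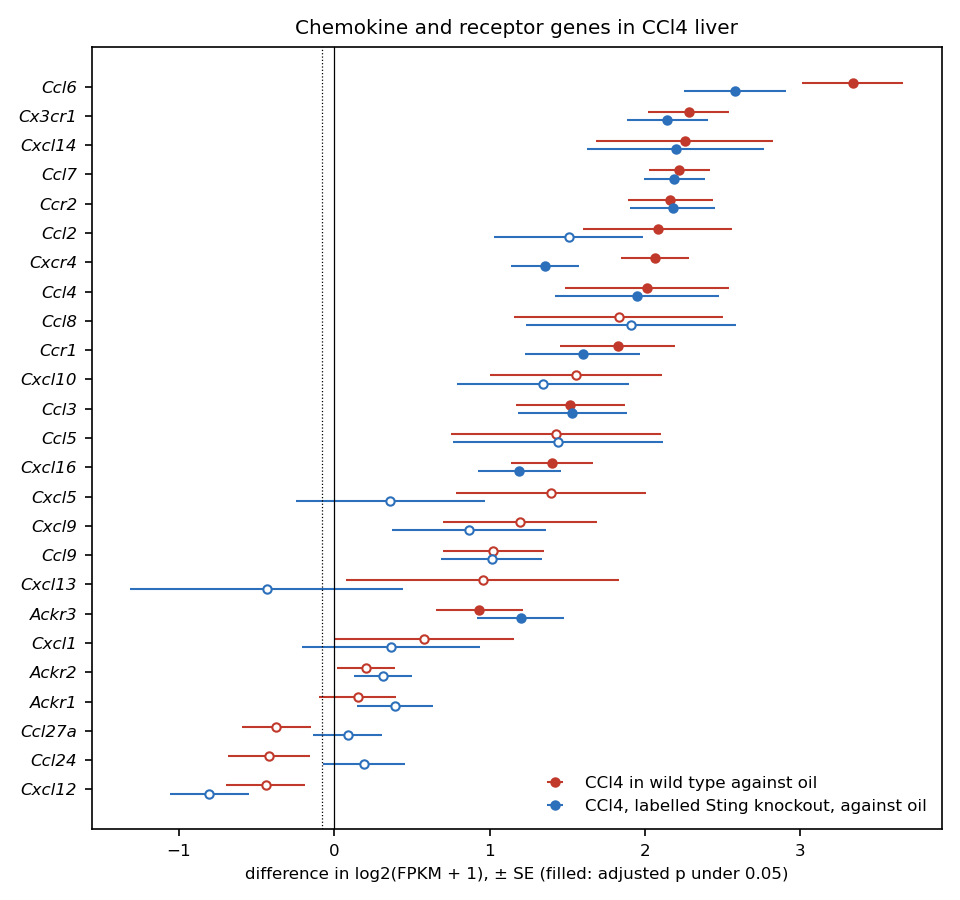
Difference from oil of 25 tested members, on the log2(FPKM + 1) scale with its standard error (3 libraries a group), for wild-type CCl4 liver and for CCl4 liver labelled Sting knockout; filled points have an adjusted p under 0.05, and the dotted line is the median of all genes in the wild-type comparison, -0.08. Both comparisons use the same oil libraries, 12 and 11 points are filled, and Cxcl12 has the lowest value in both.

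Markers of some leukocytes and of stromal cells moved beside the chemokine genes. The 10 markers of recruited macrophages and monocytes summed to 122 to 164 FPKM in oil and 807 to 1032 FPKM in wild-type CCl4 liver, and 9 of the 9 tested rose. The 8 neutrophil markers summed to 5.47 to 17.5 FPKM in oil and 64.3 to 137 FPKM in CCl4, with 4 of 4 tested higher, and the 10 hepatocyte markers to 54519 to 72337 and 38199 to 56048 FPKM, with 2 of 10 lower. The 8 stellate cell and fibroblast markers summed to 44.1 to 58.2 FPKM in oil and 136 to 273 FPKM in CCl4, with 5 of 8 higher. Kupffer cell markers summed to 154 to 252 FPKM in oil and 266 to 1095 FPKM in CCl4, with 2 of 7 higher. T and NK cell markers summed to 3.67 to 4.02 and 4.43 to 33.8 FPKM, without overlap, and 0 of 3 tested were called. In bulk liver, more cells of a type and more RNA per cell cannot be told apart, and the part of these marker changes in the chemokine results was not tested. Of 61 other genes of the chemokine pathway, 54 were tested, 19 rose and 0 fell in wild-type CCl4 liver. Of all genes tested 9.19% rose and 6.15% fell, the background for the marker and pathway counts of this paragraph. Genes low in oil passed the filter only where CCl4 levels were high, so the filter favoured rises among the genes tested. Among the receptor signalling genes 11 of 21 tested rose, among them Itgb2, the β2 integrin chain of leukocytes, from 4.30 to 28.9 FPKM, and Vav1, a Rac exchange factor, from 1.4 to 6.43 FPKM. Among related ligands and chemokine-cutting proteases 4 of 7 rose, led by the macrophage elastase Mmp12 (0.0549 to 16.9 FPKM), the gelatinase Mmp2 (1.14 to 10.3 FPKM) and Pf4, the platelet chemokine that the symbol rule does not take (1.64 to 15.4 FPKM). The receptor shut-off genes Rgs2, Arrb2 and Grk3 rose (3 of 7 tested), 1 of 11 NF-kB inputs rose (Relb), and 0 of 8 heparan sulfate genes that hold chemokines at the cell surface rose.

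Several members were set by 1 library. In wild-type CCl4 replicate 1, Ccl4, Ccl5, Ccl12, Cxcl9 and Cxcl10 were each over 2 times the next library of the group, chosen for this after their values were seen. That library also had the highest sum of T and NK cell markers, 33.8 FPKM beside 4.43 and 7.84 FPKM, and of Kupffer cell markers, 1095 FPKM beside 266 and 442 FPKM. In the group labelled Sting knockout, Ccl3, Ccl4, Ccl5 and Ccl8 were over 2 times the next library in replicate 2, where T and NK cell markers summed to 22.6 FPKM beside 5.62 and 5.25 FPKM. In wild-type CCl4 replicate 3, Cxcl5 and Ackr3 were over 2 times the next library, and Ccl11 was at 3.23 FPKM beside 0 and 0. Cholangiocyte markers summed to 37.3 FPKM in that library, beside 7.2 and 12.1 FPKM, neutrophil markers to 137 FPKM beside 64.3 and 64.4 FPKM, and eosinophil and mast cell markers to 4.68 FPKM beside 1.43 and 1.10 FPKM. The part of these marker levels in the values of the chemokine genes was not tested.

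Cxcl10 and the CXCR3 ligands are interferon-induced, and 160 bases before the Cxcl10 start show the letters such genes are known for. They come from RefSeq on GRCm38.p6, chr5:92348960-92349119 (minus strand), read on the gene's strand, and the capitals mark, in order, 1 interferon response motif (GAAA, any base, TGAAA) and 2 NF-kB type motifs, which do not overlap.
Cxcl10: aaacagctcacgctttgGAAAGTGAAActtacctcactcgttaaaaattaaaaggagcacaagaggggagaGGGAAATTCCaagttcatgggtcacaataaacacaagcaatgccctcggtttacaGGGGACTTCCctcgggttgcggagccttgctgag
The interferon motif begins 213 bases and the NF-kB type motifs 159 and 104 bases before the start. Of all promoter windows 0.682% held the interferon motif on either strand, and of the 53 member windows 2 did, those of Cxcl10 and Ccl19.

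**Figure D3:**
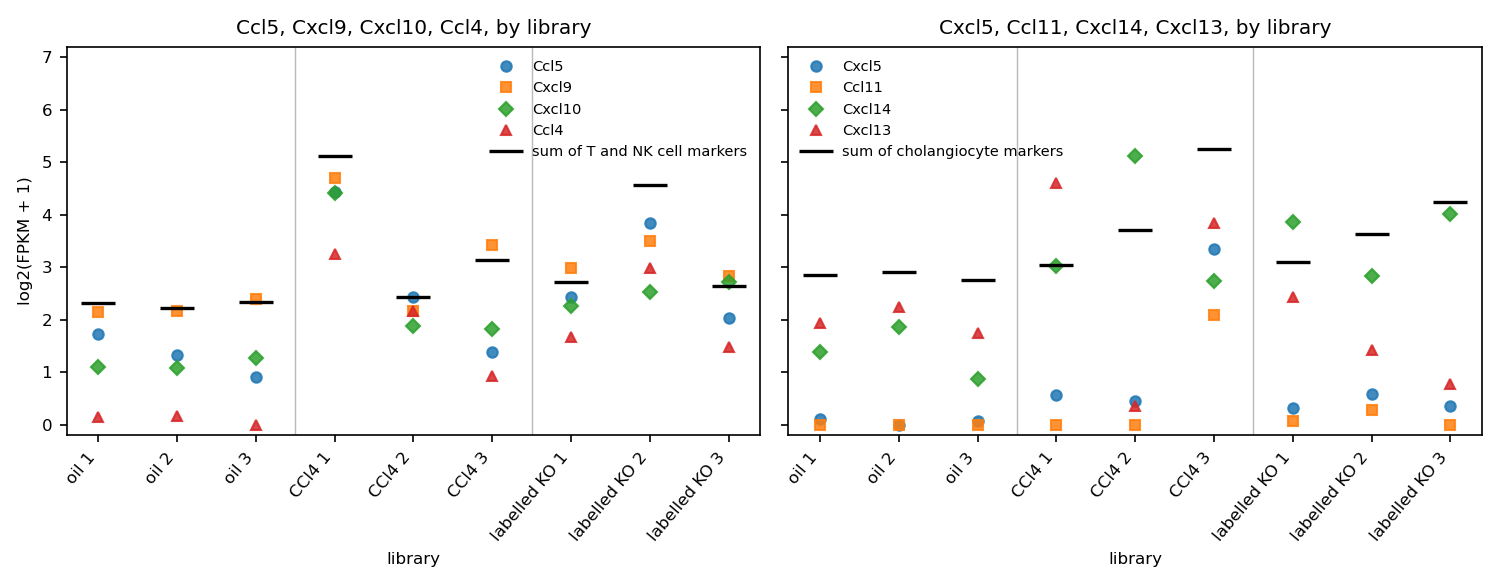
Members whose level was set by single libraries, as log2(FPKM + 1) in each of the 9 libraries of the CCl4 table, with the summed FPKM of a cell type's markers as a black bar; KO stands for the group labelled Sting knockout. On the left, Ccl5, Cxcl9, Cxcl10 and Ccl4 were highest in CCl4 replicate 1, where T and NK cell markers summed to 33.8 FPKM; on the right, Cxcl5 and Ccl11 were high in CCl4 replicate 3, where cholangiocyte markers summed to 37.3 FPKM.

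Under CCl4, the libraries labelled Sting knockout were compared with wild type; since Sting1 RNA overlapped between them, the values compare these libraries as labelled. No member was called in either direction, and neither was any of the 11511 genes (limma, 0% each way); 366 genes and 4 members had an unadjusted p under 0.05, and edgeR on recovered reads also called 0 genes, with 662 under an unadjusted p of 0.05. Of the 26 members 9 were higher in the libraries labelled Sting knockout, and the median difference was -0.10 on the log2(FPKM + 1) scale, beside 0.02 over all genes. Cxcr4 stood lowest by unadjusted p, at 2.66, 1.88 and 3.80 FPKM beside 5.02, 4.2 and 6.04 FPKM, wholly below wild type (-0.71 ± 0.22, limma, adjusted p = 0.761). Ccl6 was also wholly below, at 46.8, 33.5 and 44.6 FPKM beside 112, 48.6 and 63.2 FPKM (-0.76 ± 0.33, limma, adjusted p = 0.761). Such separation below wild type was seen in 2 of 26 members and in 2.78% of all genes tested.

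Ccl24 was at 3.0, 3.04 and 2.87 FPKM in the libraries labelled Sting knockout, above 0.977, 2.83 and 1.33 FPKM in wild type (0.61 ± 0.26, limma, adjusted p = 0.761), and Ccl27a at 2.02, 3.38 and 1.98 FPKM, above 1.30, 1.90 and 1.29 FPKM (0.46 ± 0.22, limma, adjusted p = 0.761). These were the 2 of 26 members wholly above wild type, as were 2.35% of all genes tested. Il11ra1, which Ccl27a overlaps on the opposite strand, had means of 14.9 FPKM in the libraries labelled Sting knockout and 8.63 FPKM in wild type. The part of Il11ra1 reads in the Ccl27a values was not tested. The chemokines of the CCR2 axis lay on top of each other, with Ccl7 at 5.5, 3.96 and 5.68 FPKM and Ccr2 at 5.11, 3.85 and 7.77 FPKM in the libraries labelled Sting knockout (differences of -0.03 ± 0.19 and 0.02 ± 0.27). Ccl2 was at 9.57, 1.43 and 9.68 FPKM there, with replicate 2 close to the oil level (-0.57 ± 0.48). Without replicate 2 of this group the Ccl2 difference was 0.14.

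Against the same oil libraries, 11 of 26 members rose and 0 fell in CCl4 liver labelled Sting knockout, where 8% of all genes tested rose and 5.91% fell (limma). The 11 were Ccl3, Ccl4, Ccl6, Ccl7, Cxcl14, Cxcl16, Ccr1, Ccr2, Cx3cr1, Cxcr4 and Ackr3. By edgeR on recovered reads 16 of 37 members rose and 0 fell, beside 11.4% and 4.93% of all genes. The libraries lay wholly above oil for 17 of 26 members, as for 17.8% of all genes tested. Here too the filter favoured rises among the members tested. The oil libraries are shared with the wild-type comparison, so the values are given side by side only. Ccl6 differed from oil by 2.58 ± 0.33 and Ccl7 by 2.19 ± 0.19, beside 3.34 and 2.22 in wild type. Ccr2 differed from oil by 2.18 ± 0.27, Cx3cr1 by 2.14 ± 0.26 and Cxcr4 by 1.36 ± 0.22, beside 2.16, 2.28 and 2.06. Ccl2, called in wild type, was not called here (1.51 ± 0.48, limma, adjusted p = 0.0626), and its difference between the CCl4 groups did not pass either (limma, adjusted p = 0.761). Cxcl12 was at 24.8, 22.8 and 28.4 FPKM, wholly below oil (-0.80 ± 0.26, limma, adjusted p = 0.0625), as were 19.8% of all genes tested. Of the 54 pathway genes tested, 11 rose and 0 fell, beside 8% and 5.91% of all genes tested.

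In cultured hepatocytes under LPS and nigericin few members were expressed, and all were ligands. A mean of at least 1 FPKM was reached by 7 of 66 members without MCC950 and by 8 with it, none of them a receptor, and 25 members had no read in any of the 6 libraries. Ccl9 was the highest, at 32.3, 31.7 and 33.4 FPKM without MCC950 and 36.0, 30.3 and 34.3 FPKM with it. Cxcl1 followed at 15.5, 14 and 14.5 FPKM without and 17.7, 14.3 and 14.4 FPKM with the inhibitor. Both overlapped between groups, with each library near its group's mean. Ccl2 was at 8.53, 12.4 and 10.7 FPKM without and 12.9, 11.5 and 13.8 FPKM with MCC950, and Cxcl9 at 9.54, 7.84 and 7.92 FPKM without and 9.75, 8.50 and 10.3 FPKM with it. Ccl7 and Cxcl2 had means of 4.17 ± 0.509 and 2.03 ± 0.497 FPKM without and 4.98 ± 0.686 and 2.25 ± 0.213 FPKM with MCC950 (SD, n = 3).

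MCC950 addressed whether NLRP3 inhibition alters RNA in these cells, and no member was called. Of 7 members tested 0 rose and 0 fell (limma), and 0% of 9835 genes tested were called in either direction; 1168 genes and 1 member had an unadjusted p under 0.05, and edgeR on recovered reads also called 0, with 1535 genes under an unadjusted p of 0.05. The inhibitor's target had little RNA, with 0 to 4 reads of Nlrp3 in each library. Cxcl16 was the 1 member, at 3.9, 3.91 and 4.29 FPKM without and 3.34, 3.01 and 3.66 FPKM with MCC950, wholly below (-0.22 ± 0.07, limma, adjusted p = 0.394), as were 10.8% of all genes tested; 0 of the 7 members were wholly above, beside 8.88% of all genes. The differences of Ccl9, Cxcl1 and Ccl2 were 0.04 ± 0.07, 0.07 ± 0.09 and 0.26 ± 0.13 on the log2(FPKM + 1) scale. Ccl5 was below the filter with 5, 6 and 7 reads without and 23, 11 and 18 reads with MCC950, in groups that were apart (p = 0.1 by the exact permutation test, two-sided, the smallest for this design; edgeR on recovered reads, adjusted p = 0.324). T and NK cell markers were at or near 0 in both groups, and the Kupffer cell markers summed to 0.169 to 0.204 FPKM without and 0.480 to 0.609 FPKM with MCC950, whose part in this was not tested.

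Cxcl1, Cxcl2 and Cxcl3 lie in the same cluster on chromosome 5, with Cxcl15 between Cxcl3 and Cxcl1. Their upstream bases are shown because these LPS-responsive neutrophil attractants share 1 run of 10 bases. LPS was given to every hepatocyte group, so its effect could not be compared. The stretches run from 130 to 51 bases before each start, on the plus strand of GRCm38.p6 as RefSeq gives it, at chr5:90891115-90891194, chr5:90903769-90903848 and chr5:90785971-90786050. Capitals mark matches to the NF-kB type motif on either strand, where overlapping matches on the 2 strands join into 1 run.
Cxcl1: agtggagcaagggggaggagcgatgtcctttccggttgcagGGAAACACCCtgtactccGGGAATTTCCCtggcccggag
Cxcl2: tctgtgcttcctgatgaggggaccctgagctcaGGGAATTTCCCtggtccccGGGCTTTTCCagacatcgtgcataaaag
Cxcl3: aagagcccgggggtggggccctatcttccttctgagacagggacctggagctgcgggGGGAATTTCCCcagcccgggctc
The run GGGAATTTCC begins 71, 97 and 73 bases before the start in Cxcl1, Cxcl2 and Cxcl3. It was in 0.0852% of all promoter windows and in 4 of the 53 member windows, the other being that of Ccr3. The run was picked because Cxcl1, Cxcl2 and Cxcl3 share it, so their windows held it by definition. The count over member windows is therefore no measure of enrichment. Cxcl1 was expressed in hepatocytes at 14.7 ± 0.800 FPKM and Cxcl2 at 2.03 ± 0.497 FPKM without MCC950 (SD, n = 3), whereas Cxcl3 was below the filter.

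**Figure D4:**
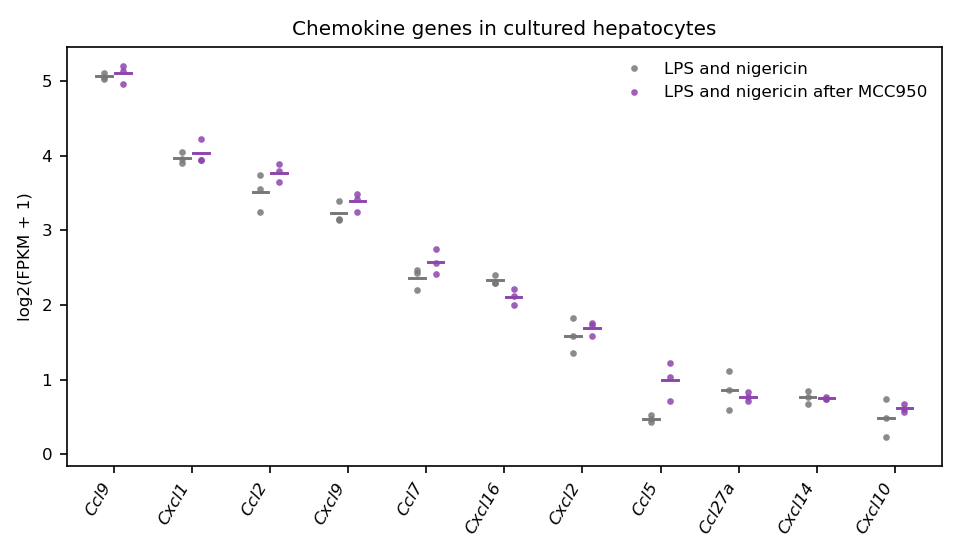
Level of the 11 members with a group mean of at least 0.4 FPKM in cultured hepatocytes, as log2(FPKM + 1) in each library; points are libraries and short lines means of 3. The groups overlapped for Ccl9, Cxcl1, Ccl2, Cxcl9, Ccl7 and Cxcl2, Cxcl16 was lower and Ccl5 higher in every MCC950 library, and no member was called.

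Under TAA, livers with Nlrp3 deleted in hepatocytes were compared with wild-type livers, and Cxcl12 was the 1 member called. It was at 8.89, 6.52 and 8.15 FPKM in wild type and at 19.4, 37.3 and 33.5 FPKM after the deletion, the highest member of that group. The groups were far apart, and edgeR's quasi-likelihood test on the deposited counts gave a log2 fold change of 1.55 ± 0.24 with an adjusted p of 0.0487. Of 59 members 42 were tested, 1 rose and 0 fell, where 1.37% of the 18619 genes tested rose and 0.36% fell. The call was close to the threshold: with DESeq2's size factors in edgeR (RLE) no member was called, and leaving out any wild-type library, or replicate 2 or 3 of the deletion, also gave 0, whereas leaving out replicate 1 of the deletion gave 6 higher (among them Cxcl12, Ccl6, Ccr6, Cx3cr1 and Cxcl16) and 3 lower (Ccl27a, Cxcl1 and Cxcl11) of 45 members, or 13.3% and 6.67%, in a fit that called 17.9% of all genes higher and 20% lower. With the replicate number as a block 0 members were called. Libraries after the deletion lay wholly above wild type for 9 of the 42 members and wholly below for 0, beside 27.8% and 6.68% of all genes tested, so the members' share above was no higher than the background.

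The CCR1 ligands Ccl6 and Ccl9 and the receptor Cx3cr1 were among those wholly above wild type, whereas Ccr2 overlapped. Ccl6 was at 2.76, 2.44 and 2.40 FPKM in wild type and 4.03, 10.3 and 18.7 FPKM after the deletion (log2 fold change 1.71 ± 0.48, edgeR, adjusted p = 0.0729). Ccl9 was at 7.24, 2.78 and 4.82 FPKM and 9.45, 9.53 and 12.0 FPKM (0.74 ± 0.27, edgeR, adjusted p = 0.120). In Ccl6 the 3 libraries after the deletion spread widely, whereas in Ccl9 it was the wild-type ones. By DESeq2, 5 members were called higher, among them Cxcl12, Ccl6, Cx3cr1 and Ccr6, where 9.1% of all genes rose and 7.77% fell, and by limma on log2(FPKM + 1), Cxcl12, Ccl6 and Ccl9, 3 of 16 members (18.8%) beside 21.7% of all genes.

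Cx3cr1 was at 0.40, 0.47 and 0.77 FPKM in wild type and 0.82, 2.00 and 2.11 FPKM after the deletion (1.19 ± 0.42, edgeR, adjusted p = 0.114), and Cxcl16 at 3.01, 2.45 and 4.02 FPKM and 4.26, 7.93 and 6.62 FPKM (0.61 ± 0.25, edgeR, adjusted p = 0.162). Ccl5 was at 2.51, 4.13 and 3.07 FPKM in wild type and 7.71, 4.47 and 5.04 FPKM after the deletion (0.41 ± 0.40, edgeR, adjusted p = 0.534). Cxcl14 was at 1.70, 0.50 and 1.57 FPKM and 1.82, 2.37 and 2.66 FPKM (0.55 ± 0.41, edgeR, adjusted p = 0.400). None of these 4 passed although their libraries did not overlap. The CCL20 receptor Ccr6 had no read in any wild-type library and 17, 22 and 40 after the deletion, at least 5.65-fold higher for library size when each wild-type library is set to 3 reads (edgeR, adjusted p = 0.0631). Ccl7 likewise had 0 reads in wild type and 10, 4 and 32 after the deletion, at least 3.18-fold higher on the same terms, and was below the filter. Cxcr6, the CXCL16 receptor, was at 0.08, 0.13 and 0.30 FPKM in wild type and 0.51, 0.80 and 0.85 FPKM after the deletion, also apart (1.68 ± 0.64, edgeR, adjusted p = 0.137).

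The other tested members overlapped. Ccl2 was at 1.55, 2.73 and 4.63 FPKM in wild type and 3.47, 4.02 and 3.01 FPKM after the deletion (log2 fold change -0.16 ± 0.42), a direction that turned to 0.25 with limma on log2(FPKM + 1). The median of all genes moved to 0.33 on that scale and was -0.04 in edgeR. Cxcl1, the highest member of wild-type TAA liver, was at 11.1, 6.94 and 10.1 FPKM and 11.1, 6.14 and 3.21 FPKM (-0.79 ± 0.43, edgeR, adjusted p = 0.257), and Cxcl10 at 1.28, 1.42 and 1.84 FPKM and 1.00, 1.47 and 0.91 FPKM (-0.81 ± 0.33, edgeR, adjusted p = 0.153). Cxcl11 was at 3.22, 1.77 and 2.39 FPKM in wild type and 3.47, 1.11 and 0.26 FPKM after the deletion. Replicate 1 of the deletion lay above every wild-type library, and replicates 2 and 3 lay below them all. Of the 3 CXCR3 ligands none was called.

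Marker sums differed between these groups too. The 10 hepatocyte markers summed to 11898 to 13101 FPKM in wild type and 30540 to 35811 FPKM after the deletion, with 2 of 10 called higher, the 10 markers of recruited macrophages and monocytes to 51.0 to 82.6 and 75.2 to 277 FPKM, and the 8 markers of stellate cells and fibroblasts, a known source of Cxcl12, to 15.9 to 27.7 and 26.1 to 72.2 FPKM, with 0 called in either of the latter. The hepatocyte sums were apart, whereas the macrophage and monocyte sums and the stellate cell and fibroblast sums overlapped between groups. Also apart, and higher after the deletion, were the sums of Kupffer cell markers (58.8 to 68.0 and 69.3 to 161 FPKM), sinusoidal endothelium (24.8 to 28.6 and 29.1 to 57.3 FPKM) and B cells (1.79 to 2.72 and 4.24 to 4.58 FPKM). Those of dendritic cells (5.46 to 5.66 and 3.85 to 4.75 FPKM) were apart and lower. The part of these marker levels in the Cxcl12 result was not tested. Of 61 pathway genes tested 1 rose, the heparan sulfate proteoglycan Sdc1, from 15 to 43.8 FPKM (edgeR, adjusted p = 0.0487), and 0 fell. Of all genes tested 1.37% rose and 0.36% fell.

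**Figure D5:**
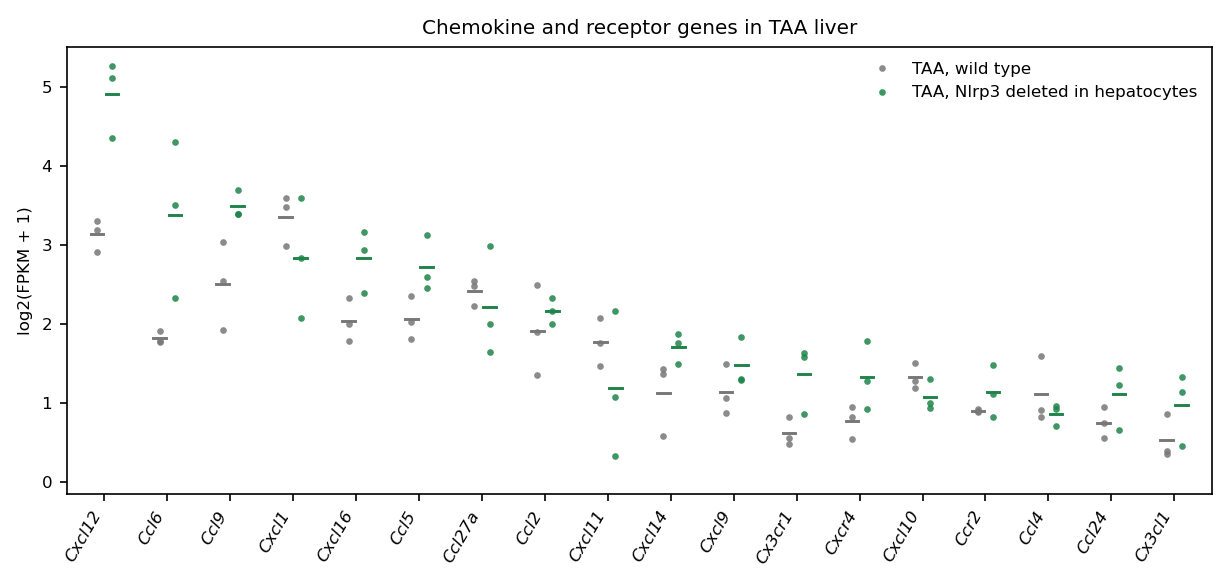
Level of 18 members with a group mean of at least 1 FPKM in TAA liver, as log2(FPKM + 1) in each library; points are libraries and short lines means of 3. Cxcl12 lies at 6.52 to 8.89 FPKM in wild type and 19.4 to 37.3 FPKM after the deletion of Nlrp3 in hepatocytes, whereas Cxcl1, Ccl2, Cxcl10 and Ccr2 overlap.

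Of the 13 calls in wild-type CCl4 liver, 7 (Ccl6, Ccl7, Cxcl16, Cx3cr1, Ccr1, Ccr2 and Cxcr4) passed under each of the 17 alternative settings, leave-one-out fits included. Without oil replicate 1 those 7 were left, and the calls of Ccl2, Ccl3, Ccl4, Cxcl14 and Ackr3 were among those lost. Without oil replicate 2, or without oil replicate 3, 9 members were called. In CCl4 liver labelled Sting knockout, leaving out oil replicate 1 or oil replicate 3 left 5 of the 11 calls, each time Ccl6, Ccl7, Ccr2, Cx3cr1 and Cxcr4.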

How the data were processed

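RNA was sequenced in 21 mouse libraries, and the submitters' processing notes name HISAT2 2.2.1, featureCounts 1.5.0-p3 and mm10; the sources used here do not give the handling of strand. The authors deposited 3 tables, normalized separately, so groups were compared inside 1 table only. For TAA, the deposited values are unnormalized counts beside FPKM, as the column names state. For the rest, the authors deposited FPKM with gene lengths. In these, 100% of FPKM values multiplied by length came out as whole reads (within 0.05) once divided by the value of 1 read in that library. The FPKM of 1 read did not follow the read total, and the sources used here do not say how it was set.

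Comparisons in FPKM tables were fitted with limma 3.58.1 (intensity trend) to log2(FPKM + 1), a scale that understates changes of low genes, keeping genes whose mean was 1 FPKM or more; oil and both CCl4 groups shared 1 fit. For TAA the test was edgeR 4.0.16 (quasi-likelihood, TMM, filterByExpr) on counts. All tests were two-sided, and p-values were adjusted over all genes tested (Benjamini-Hochberg, threshold 0.05). Single values used an exact permutation test (scipy 1.17.1). R was 4.3.3 and DESeq2, an alternative, 1.42.0. Errors are SD of FPKM over 3 libraries or SE of the fitted difference. In limma the SE rests on a moderated variance from all libraries of the fit. For edgeR it was derived from the test, as the size of the log2 fold change divided by the square root of the quasi-likelihood F. Intervals and floors (3 reads) cover counting error only.

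The members, gene lists and tests were chosen with earlier results of these data known. Values in every library are given for members called in wild-type CCl4 against oil or under TAA. They are also given for most members at a mean of at least 1 FPKM whose groups did not overlap, and for the 5 highest of each table. For CCl4 liver labelled Sting knockout they are given for part of these members only. Other members are given by means, ranges or counts. Those named outside this rule were chosen after their values were seen. Of each pathway list, up to 3 called genes with the largest change are named. A member and a pathway gene are counted in the totals but not reported here. The tests were tested on simulated data. No label says that replicate numbers pair libraries, and the main tests did not pair them. A block by replicate number was fitted as an alternative for each comparison. Same-numbered libraries deviated together with a correlation over 0.1 in every pair for wild-type CCl4 with oil (0.23, 0.32 and 0.52). The same held for the groups labelled Sting knockout and wild type under CCl4 (0.19, 0.18 and 0.12). Such correlations come from the data and do not show that the libraries were paired. RefSeq promoter windows (GRCm38.p6) matched 46 of 62 symbols. No per-sample column was left unused.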

Additional observations from a re-analysis of the deposited data

How the results depend on the processing

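The number of members called higher in wild-type CCl4 liver, 13, was 8 without a filter on low values and 20 by edgeR on recovered reads. Leaving out 1 library gave 7 to 15. In CCl4 liver labelled Sting knockout against oil, 11 became 6 without the filter and 5 to 12 on leaving out 1 library, and 0 to 1 were called lower. For Nlrp3 deletion under TAA, 1 became 0 with RLE factors, 5 with DESeq2, 2 without a filter, 3 by limma on log2(FPKM + 1) and 0 with the replicate number as a block. There the numbers share only a number: pair correlations were 0.08, -0.04 and -0.02, and 2 of 6 libraries correlated best with their own number. Leaving out 1 TAA library gave 0 to 6 higher and 0 to 3 lower; the 6 and 3 came without replicate 1 of the deletion, where 17.9% and 20% of all genes were called. The counts of members called in the libraries labelled Sting knockout against wild type and in the MCC950 comparison stayed at 0 under 17 and 13 alternatives, the replicate block included. In wild-type CCl4 against oil, the block called 13 members higher and changed no call of a member that was called without it. In the MCC950 comparison, pair correlations were 0.18, 0.22 and 0.09, and 6 of 6 libraries correlated best with their own number. In CCl4 liver labelled Sting knockout against oil, pair correlations were 0.02, 0.18 and 0.09, and the block called 12 members higher. Directions of small differences turned on single libraries. Over the fits that left out 1 library, the Sting comparison gave -0.93 to 0.14 for Ccl2, -0.14 to 0.10 for Ccl7 and -0.23 to 0.24 for Ccr2. Cxcl1 in wild-type CCl4 against oil ranged from -0.22 to 1.06. With MCC950, Ccl9 ranged from -0.012 to 0.11, Cxcl1 from -0.024 to 0.12 and Cxcl2 from -0.0057 to 0.23. Under TAA, Ccl2 ranged from -0.44 to 0.20 and was 0.25 by limma, and Ccr2 ranged from -0.25 to 0.33. The cause of these turns was not tested. With 3 libraries a group, changes of members below 1 FPKM were poorly resolved.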
